A study of Mus musculus with 16 samples.

Results

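The Rosa26 noncoding RNA, Gt(ROSA)26Sor, and the protein-coding genes on either side of it, Thumpd3 and Setd5, were examined in sorted cortical parvalbumin (PV) interneurons of adult mice. These 3 of 54532 measured genes were taken by name and position. They were chosen by the difference in read counts of Gt(ROSA)26Sor between the groups in these same libraries, so its levels and those of its neighbours are a description of that contrast and not a test of it. RNA-seq was made from 7 eGFP-GluA2 libraries (PV-Cre with lsl-eGFP-GluA2) and 9 eGFP control libraries (PV-Cre with lsl-eGFP), numbered in the labels as biological replicates. Both genotypes carry a Cre driver for PV cells and a Cre-dependent green fluorescent cassette, and in eGFP-GluA2 mice this cassette is fused to GluA2, the AMPA receptor subunit encoded by Gria2. The labels do not say where in the genome either cassette sits. Mice were 113.1 ± 11.6 days old over the study (the kind of error is not given), and the tissue was fixed in paraformaldehyde before nucleated fluorescent cells were sorted. The stated purpose was to test the removal of calcium-permeable AMPA receptors.

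Rosa26 was found by gene trapping in mouse embryonic stem cells. Its promoter is active in nearly all tissues, it makes spliced RNAs with no known protein product, and its first intron is a common landing site for transgenes, also those that depend on Cre. THUMPD3 is a methyltransferase that modifies tRNA together with its activator TRMT112. SETD5 is a chromatin regulator with a SET domain, and loss of one copy of the human gene causes a neurodevelopmental disorder.

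On GRCm38, Gt(ROSA)26Sor (ENSMUSG00000086429) lies on the minus strand of chromosome 6, from 113067428 to 113077333. Setd5 (ENSMUSG00000034269, 113077365 to 113153435, plus strand) starts next to it and runs the other way, with a gap of 31 bases between the annotated starts. Thumpd3 (ENSMUSG00000030264, 113046225 to 113068273, plus strand) runs into the far end of the noncoding RNA. The gene bodies of Thumpd3 and Gt(ROSA)26Sor overlap by 846 bases, of which 145 are exonic in both. These are 8.55% of the 1695 exonic bases of Gt(ROSA)26Sor and 2.21% of the 6554 of Thumpd3. The sources do not say if strand was used in counting, and reads in these 145 bases cannot be assigned without it. Of the 4 annotated Gt(ROSA)26Sor transcripts, 2 hold these bases, each of them all 145. Setd5 shares no exonic base with another annotated gene, and Thumpd3 shares 251 exonic bases with other genes in all.

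**Figure D1:**
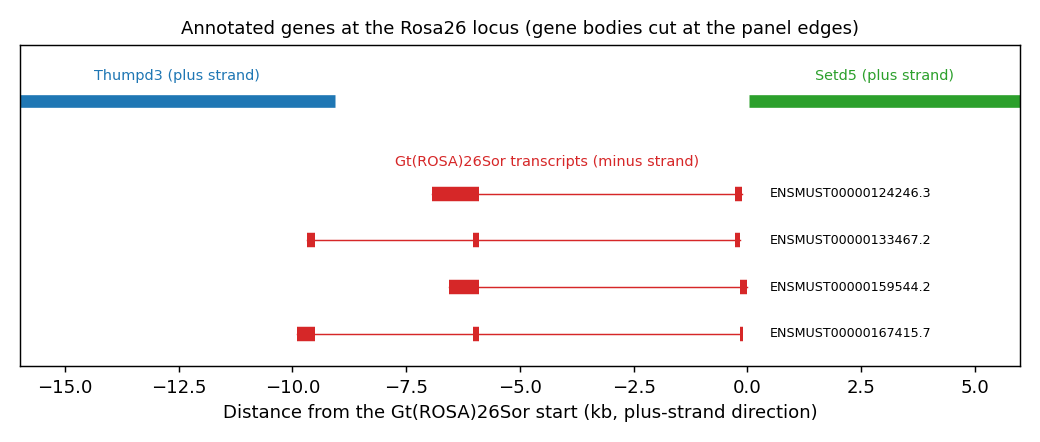
Map of the Rosa26 locus from the GENCODE M21 annotation. The x axis is the distance in kb from the annotated Gt(ROSA)26Sor start; thick bars are exons of the 4 noncoding transcripts (red) or gene bodies of Thumpd3 and Setd5, which are cut at the panel edges. Setd5 starts 31 bases beyond the start of the noncoding RNA, and Thumpd3 ends inside its far end.

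The sequences below show what the gene-level count of Gt(ROSA)26Sor gathers: exon 1 ends at either of 2 splice sites, each used by 2 transcripts, and all 4 are joined to the same start of exon 2. The longest exon 1 for each splice site is given. They are taken from the GENCODE M21 transcripts (GRCm38, minus strand, written as RNA-sense DNA). Capitals mark the 37 bases that both of these forms hold; the exon 2 stretch of 142 bases is common to all 4 transcripts. The upstream form (chr6:113077174-113077333, 160 bases, transcript ENSMUST00000159544.2) reaches to the edge of the gap towards Setd5. The downstream form (chr6:113077068-113077210, 143 bases, transcript ENSMUST00000124246.3) reads on past the splice site of the upstream form. The common stretch of exon 2 lies at chr6:113071294-113071435.
Upstream exon 1: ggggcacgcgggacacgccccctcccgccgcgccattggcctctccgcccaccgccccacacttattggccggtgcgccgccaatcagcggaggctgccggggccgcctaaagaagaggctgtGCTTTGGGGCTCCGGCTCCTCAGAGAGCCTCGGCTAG
Downstream exon 1: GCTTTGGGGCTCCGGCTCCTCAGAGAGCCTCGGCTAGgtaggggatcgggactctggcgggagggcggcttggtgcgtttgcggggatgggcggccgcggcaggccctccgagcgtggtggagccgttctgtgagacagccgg
Exon 2, common stretch: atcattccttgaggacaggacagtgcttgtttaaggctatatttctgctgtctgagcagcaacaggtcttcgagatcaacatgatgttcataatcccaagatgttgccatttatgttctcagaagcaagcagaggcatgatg
The deposited values are per gene, so the use of these forms was not measured here.

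Each library held 7454165 to 15462544 counted reads. The libraries differed strongly in reads of olfactory and vomeronasal receptor genes, called background here, at 82.4 to 3846 CPM (counts scaled to library size) in eGFP-GluA2 and 99.4 to 4142 CPM in eGFP libraries. They fell into 3 tiers: low (82.4 to 162 CPM, 2 eGFP-GluA2 and 3 eGFP libraries), middle (675 to 1276 CPM, 3 eGFP-GluA2 and 2 eGFP libraries) and high (1909 to 4142 CPM, 2 eGFP-GluA2 and 4 eGFP libraries). The summed CPM of 8 PV interneuron markers was 5626 to 9700 in eGFP-GluA2 and 5107 to 9325 in eGFP libraries. Markers of other cells were far lower. The summed CPM of 5 excitatory neuron markers was 52.0 to 89.7 (median 63.1) in eGFP-GluA2 and 34.0 to 74.5 (median 44.5) in eGFP libraries, and that of 4 markers of other interneurons was 41.5 to 66.9 (median 46.5) in eGFP-GluA2 and 30.0 to 55.7 (median 37.0) in eGFP libraries. Oligodendrocyte markers (4 genes) summed to 69.9 to 97.6 CPM (median 90.2) in eGFP-GluA2 and 56.0 to 107 CPM (median 61.8) in eGFP libraries. Astrocyte markers (4) summed to 18.9 to 48.7 CPM in eGFP-GluA2 and 14.2 to 51.7 CPM in eGFP libraries. Microglial markers (4) summed to 11.8 to 28.4 CPM in eGFP-GluA2 and 8.01 to 30.1 CPM in eGFP libraries, and endothelial markers (4) to 4.07 to 60.4 CPM in eGFP-GluA2 and 2.93 to 60.0 CPM in eGFP libraries. None of these markers was at 0 in any library. In the gene test described next 0 of them passed, but only 0.00381% of all genes tested did, so this count tells little. The median log2 fold change was 0.47 for the excitatory list and 0.46 for the other interneurons. Both medians lay above the central 95% of all genes tested, which ran from -0.468 to 0.353. The medians of the other lists lay inside it, from -0.04 (astrocytes) to 0.21 (oligodendrocytes). The part of RNA from other cells in the results below was not tested. In bulk samples fewer cells of a type and less RNA per cell cannot be told apart.

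Gt(ROSA)26Sor was higher in eGFP-GluA2 cells in every library. In TPM, which is scaled for transcript length too, its level was 14.3 at the lowest, 18.96 at the median and 44.2 at the highest of 7 eGFP-GluA2 libraries, and 2.17, 4.50 and 5.99 TPM in the 9 eGFP libraries. The groups did not overlap: the lowest eGFP-GluA2 library was above the highest eGFP library, as for 0.00762% of the genes tested, while another 0.00762% had the opposite order. The 2 highest values, 44.2 and 35.8 TPM, were those of eGFP-GluA2 replicates 6 and 7, both of low background, while the other 5 eGFP-GluA2 libraries lay between 14.3 and 19.6 TPM. Its mean was 23.9 ± 11.5 TPM in eGFP-GluA2 cells (SD, n = 7), against 4.19 ± 1.36 TPM in eGFP cells (SD, n = 9), a ratio of 5.69. By mean TPM, 88.9% of the 26257 genes tested lay below Gt(ROSA)26Sor in eGFP-GluA2 cells and 60.9% in eGFP cells.

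The read counts behind these levels were small but clear of each other. Gt(ROSA)26Sor had 107 to 354 reads (median 151) in eGFP-GluA2 libraries and 17 to 56 reads (median 42) in eGFP libraries. The exact Poisson 95% interval, which covers counting error only, was 87.7 to 129 reads for the lowest eGFP-GluA2 library and 42.3 to 72.7 reads for the highest eGFP library. Scaled to library size the level was 17.5 ± 4.77 CPM in eGFP-GluA2 cells (SD, n = 7), against 3.55 ± 1.203 CPM in eGFP cells (SD, n = 9). Fitted over all 26257 genes with edgeR's quasi-likelihood model, the log2 fold change was 2.30 ± 0.22 (SE; 95% interval 1.84 to 2.76), which is 4.91-fold (3.57 to 6.76). It was the second largest log2 fold change in size among the genes tested. It was also the single gene past an adjusted p of 0.05 (Benjamini-Hochberg), a share of 0.00381% of the genes tested, and nothing is read from this since the contrast chose the gene. In CPM 1 gene, Gt(ROSA)26Sor, had every eGFP-GluA2 library above every eGFP library (0.00381% of the genes tested) and the share with every one below, none of them a member, was 0.0152%.

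**Figure D2:**
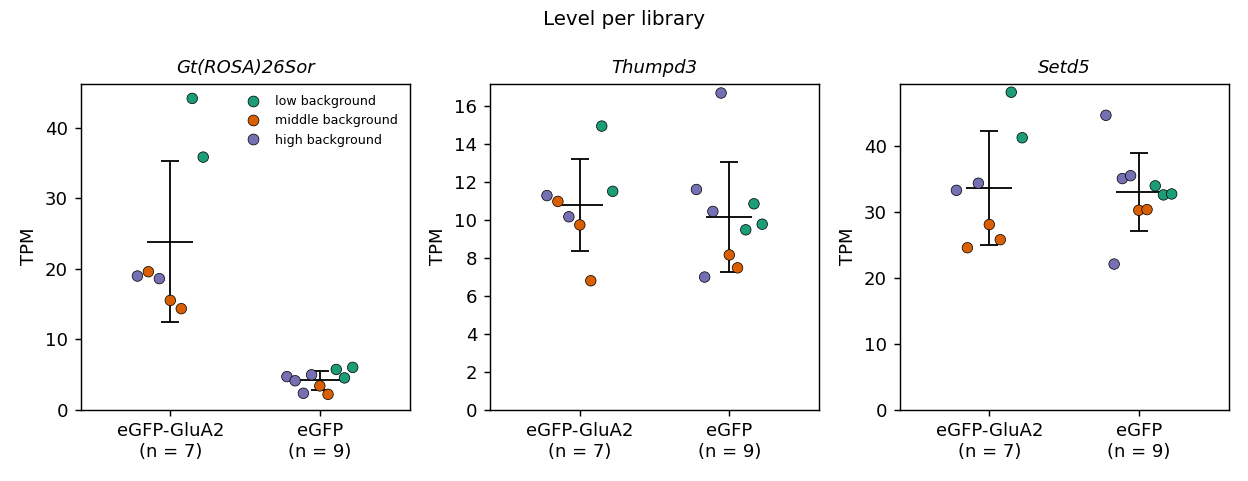
TPM of each member in each library, eGFP-GluA2 (n = 7) left of eGFP (n = 9) in each panel. Points are libraries coloured by background tier, wide dashes are group means and bars are SD; Gt(ROSA)26Sor spans 14.3 to 44.2 TPM in eGFP-GluA2 and 2.17 to 5.99 TPM in eGFP libraries, while the groups overlap for Thumpd3 and Setd5.

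Values within background tiers come from the contrast that chose the gene and from 2 to 4 libraries per group, where many genes have groups that do not overlap. In CPM, 9.23% of the genes tested had every eGFP-GluA2 library above every eGFP library in the low tier, 8.86% in the middle and 5.64% in the high tier, and 15.3%, 9.22% and 5.5% had every one below. Gt(ROSA)26Sor was above in all 3 tiers, as was Gria2. In low-background libraries its level was 23.5 and 25.1 CPM in eGFP-GluA2 and 4.13 to 5.24 CPM in eGFP cells, a difference of 2.33 in mean log2 CPM. In middle-background libraries it was 14.5 to 15.8 CPM in eGFP-GluA2 and 2.08 and 2.52 CPM in eGFP cells, a difference of 2.65. In high-background libraries it was 12.7 and 15.2 CPM in eGFP-GluA2 and 1.91 to 4.62 CPM in eGFP cells, a difference of 2.06. In both groups the level was highest in the low-background libraries, at a mean log2 CPM of 4.61 in eGFP-GluA2 and 2.28 in eGFP cells. The order of the other tiers differed: 3.95 in the middle and 3.81 in the high tier of eGFP-GluA2, and 1.31 in the middle and 1.75 in the high tier of eGFP. Pvalb, the marker of the sorted cells, had differences of -0.27, 0.17 and -0.16 in the low, middle and high tier. Its groups did not overlap in the low tier, at 349.8 and 357 CPM in eGFP-GluA2 and 371 to 461 CPM in eGFP cells.

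The log2 ratio of group means for this gene differed between measures. These do not differ in scaling alone. The reads recovered from the authors' normalized values numbered 10477517 to 17382059 per library, against 7454165 to 15462544 in the deposited counts. What sets these reads apart was not tested. The authors' normalized values for Gt(ROSA)26Sor were 108 to 231 (median 133) in eGFP-GluA2 and 14.8 to 46.3 (median 28.0) in eGFP libraries. The log2 ratio of the group means of these values was 2.33, that of the unscaled deposited counts 2.23, that of the CPM computed from them 2.30 and that of the deposited TPM 2.51. The authors' deposited table of their comparison lists a log2 fold change of 1.38 ± 0.15 for Gt(ROSA)26Sor, the highest of 48166 genes with a value, and gives it the smallest adjusted p, with Gria2 next at 0.85 ± 0.12. These lay nearer 0 than the log2 ratios of the group means of the same table's normalized values, 2.33 for Gt(ROSA)26Sor and 1.03 for Gria2. The sources do not say if that table's fold changes were shrunk, and the 1.38 is not comparable in size with the ratios above without knowing it.

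Thumpd3, the tRNA methyltransferase gene whose last part the noncoding RNA overlaps, had similar levels in both groups. It was at 6.78 TPM at the lowest, 10.96 at the median and 14.9 at the highest in eGFP-GluA2, and at 6.98, 9.76 and 16.7 TPM in eGFP libraries. The ranges overlapped almost entirely. In CPM it averaged 18.0 ± 2.79 in eGFP-GluA2 cells (SD, n = 7), against 19.9 ± 2.32 in eGFP cells (SD, n = 9), with an edgeR log2 fold change of -0.15 ± 0.10 (SE), or 0.904-fold with a 95% interval of 0.780 to 1.05. The sign turned on the TPM scale, where the log2 ratio of means was 0.08, and the log2 fold change was also just above 0, at 0.0087, in edgeR on the reads recovered from the authors' normalized values. In the high-background tier the CPM did not overlap, at 14.3 and 14.4 in eGFP-GluA2 and 18.2 to 20.5 in eGFP cells, a difference of -0.40 in mean log2 CPM over 2 eGFP-GluA2 and 4 eGFP libraries, and 5.5% of all genes tested were lower without overlap in that tier. In the low and middle tier the difference was -0.08 and 0.02 with overlap.

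Setd5, the chromatin gene that starts beside the noncoding RNA, was the most abundant of the 3 per length. Its level was 24.6, 33.3 and 48.2 TPM (lowest, median and highest) in eGFP-GluA2 and 22.1, 32.8 and 44.7 TPM in eGFP libraries, with overlapping ranges. It averaged 166 ± 27.5 CPM in eGFP-GluA2 cells (SD, n = 7), against 178 ± 24.1 CPM in eGFP cells (SD, n = 9). The edgeR log2 fold change was -0.10 ± 0.12 (SE), or 0.933-fold with a 95% interval of 0.780 to 1.12. Within tiers the differences in mean log2 CPM were -0.06, -0.22 and -0.16 in the low, middle and high tier, each with overlap. On TPM the 2 low-background eGFP-GluA2 libraries stood at 48.2 and 41.3, as they did at the top for Gt(ROSA)26Sor, and averaged 44.8 against 33.1 in the 3 low-background eGFP libraries. The intervals of Thumpd3 and Setd5 reach down to 0.780-fold and up to 1.05-fold and 1.12-fold.

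By level per length, the order of the 3 genes differed between groups. In eGFP-GluA2 cells Gt(ROSA)26Sor (23.9 ± 11.5 TPM) stood between Setd5 (33.7 ± 8.62) and Thumpd3 (10.8 ± 2.43; SD, n = 7), and its range overlapped that of Setd5 and, at its lower end, that of Thumpd3. In eGFP cells Gt(ROSA)26Sor (4.19 ± 1.36 TPM) came last, after Setd5 (33.1 ± 5.94) and Thumpd3 (10.1 ± 2.89; SD, n = 9), and the ranges of the 3 genes did not touch.

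Ratios within a library do not depend on how libraries are scaled. Gt(ROSA)26Sor had 0.781 to 1.22 reads per read of Thumpd3 in eGFP-GluA2 libraries (mean 0.963 ± 0.161, SD, n = 7) and 0.105 to 0.25 in eGFP libraries (0.176 ± 0.0490, SD, n = 9). Against Setd5 it had 0.0797 to 0.134 reads per read (0.105 ± 0.0205) in eGFP-GluA2 and 0.0108 to 0.0284 (0.0200 ± 0.00625) in eGFP libraries. Neither pair of ranges overlapped, so the noncoding RNA differed relative to both neighbours in all libraries. These ratios hold the read counts that chose the gene, so they describe the same contrast and do not test it. The share of other gene pairs whose ratios do not overlap was not computed. The ratio of Thumpd3 to Setd5 was 0.0949 to 0.131 (0.109 ± 0.0114) in eGFP-GluA2 and 0.0914 to 0.144 (0.113 ± 0.0149) in eGFP libraries, and these ranges overlapped. Relative to their means, the ratios to Thumpd3 and Setd5 varied by 16.7% and 19.5% between eGFP-GluA2 libraries, beside 27.3% for the CPM of Gt(ROSA)26Sor itself. Between eGFP libraries they varied by 27.9% and 31.2%, beside 33.9% for its CPM.

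**Figure D3:**
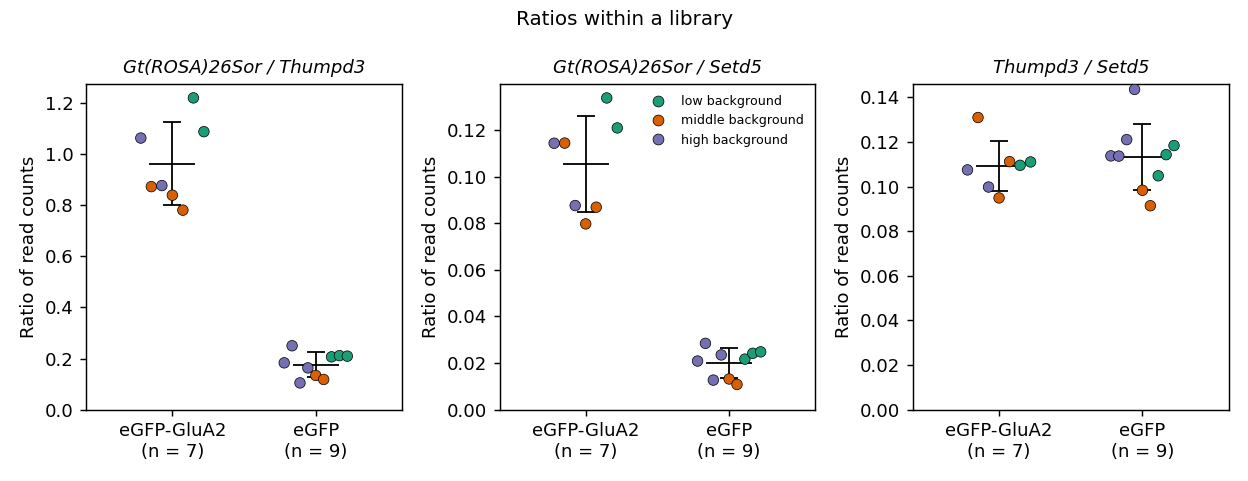
Ratio of read counts of the genes named above each panel, per library, eGFP-GluA2 (n = 7) left of eGFP (n = 9). Points are libraries coloured by background tier, wide dashes are group means and bars are SD; both ratios with Gt(ROSA)26Sor are apart between groups (0.781 to 1.22 and 0.105 to 0.25 against Thumpd3), while Thumpd3 to Setd5 overlaps.

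Gria2, the gene of the subunit in the fusion, was set beside the noncoding RNA. Reads of the fusion and of the endogenous gene were not separated here. It had 142 to 300.0 TPM (median 164) in eGFP-GluA2 and 57.2 to 108 TPM (median 87.8) in eGFP libraries, without overlap. It and Gt(ROSA)26Sor were the only genes with every eGFP-GluA2 library above every eGFP library in TPM, 0.00762% of the genes tested. In CPM over all libraries the Gria2 ranges overlapped, at 718 to 1215 in eGFP-GluA2 and 472 to 783 in eGFP. Its ratio of group means differed between the same measures, which do not all rest on the same reads. It was 2.22 in TPM, 2.04 in the authors' normalized values, 1.64 in CPM and 1.55 in the unscaled deposited counts. The edgeR log2 fold change of Gria2 on the deposited counts was 0.71 ± 0.16 (SE), and it did not pass the threshold. In the authors' own DESeq2 comparison its adjusted p was 4.63e-09. There 9 of 48166 genes with a fold change had an adjusted p under 0.05. In CPM the mean of Gria2 was higher by 376 and that of Gt(ROSA)26Sor by 13.9. There was 0.0138 to 0.0210 read of Gt(ROSA)26Sor per read of Gria2 in eGFP-GluA2 and 0.00343 to 0.00940 in eGFP libraries.

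Covariation among libraries of the same group and tier was not used to choose the genes and was tested, on log2 CPM as deviations from the mean of each group and tier over 16 libraries, with exact two-sided permutation within these strata. For Gt(ROSA)26Sor with Gria2, Pearson's r was 0.14 (exact permutation p = 0.576) and Spearman's rho 0.22 (p = 0.469). With Thumpd3 the noncoding RNA had r = 0.32 (exact permutation p = 0.306; rho 0.45, p = 0.192), and with Setd5 r = 0.17 (exact permutation p = 0.525; rho 0.19, p = 0.527). Thumpd3 and Setd5 had r = 0.22 (exact permutation p = 0.421; rho 0.27, p = 0.379). None of the 4 relations passed after Benjamini-Hochberg adjustment (0.576 for each r and 0.527 for each rho). Without the 2 libraries farthest from the median of the gene named first, r was 0.15, 0.58, 0.05 and -0.02 in the same order. Taken over tiers, as deviations from the group mean alone, r was 0.62 for Gt(ROSA)26Sor with Gria2, 0.71 with Thumpd3 and 0.66 for Thumpd3 with Setd5 (adjusted permutation p = 0.0167, 0.00832 and 0.0167), and 0.43 for Gt(ROSA)26Sor with Setd5 (0.0994). The 3 relations that passed over tiers did not pass within tiers, where each group and tier holds 2 to 4 libraries.

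**Figure D4:**
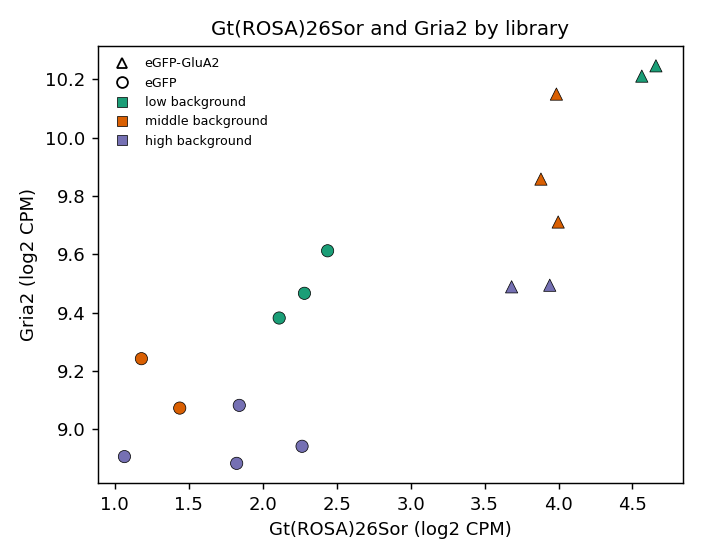
Level of Gria2 against that of Gt(ROSA)26Sor, both in log2 CPM, 1 point per library (triangles eGFP-GluA2, circles eGFP), coloured by background tier. The groups are apart along the x axis, and in each group the low-background libraries lie highest on the y axis; within a group and tier r was 0.14.

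The genes whose pattern was most like each member were sought among 14432 genes whose average log2 CPM, as edgeR fits it over all libraries, was at least 2, by Pearson's r over the 16 libraries, as a description of libraries that share the group difference and the background gradient. For Gt(ROSA)26Sor the 5 highest were Gria2 (0.87), Ints7 (0.81), 1700025F24Rik (0.81), Shisa8 (0.80) and Ccn3 (0.79). All 5 had a higher mean in eGFP-GluA2 cells, so this order restates in part the group difference that chose Gt(ROSA)26Sor. Of these, 1700025F24Rik (mean log2 CPM 2.23 in eGFP-GluA2 and 1.79 in eGFP cells) and Ccn3 (2.24 in eGFP-GluA2 and 1.83 in eGFP cells) lay under 2 in eGFP cells. For Thumpd3 they were Kansl1l (0.92), Gm14322 (0.90), Snrpf (0.88), Ergic2 (0.87) and Jak2 (0.87). For Setd5 they were Tut4, Kmt2e, Dgkh, Ogt and Chd2, each at 0.97, and 196 genes had r over 0.9 with it. Kmt2e encodes a SET-domain protein closely related to SETD5. As deviations from group and tier means the 5 highest were Umps (0.87), Ahcy (0.86), Isg20l2 (0.84), Dcaf10 (0.82) and Sesn1 (0.81) for Gt(ROSA)26Sor, and Gria2 was not among them. They were Lpp (0.91), Rin2 (0.89), Unc13c (0.89), Muc16 (0.87) and Mrpl1 (0.86) for Thumpd3, and Celf2, Ogt, Smg1, Srpk1 and Usp54 (0.94 to 0.95) for Setd5. The list for Gt(ROSA)26Sor had no gene in common between the 2 measures, and that for Setd5 shared Ogt, which encodes the enzyme that adds N-acetylglucosamine to proteins.

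Around the locus, 39 further genes of the tables lie within 500 kb of Gt(ROSA)26Sor, and 25 of them passed the filter on low counts. Of these 25, 0 passed the threshold in either direction and 0 had an unadjusted p under 0.05 in edgeR, where the shares over all genes tested were 0.00381% and 1.12%, so counts of 0 among 25 genes are near the background. Their median log2 fold change was 0.03, beside -0.02 over all genes tested, with 14 above 0 and 11 below. The largest change in size among them was 0.26, against 2.30 for the noncoding RNA. The 2 of smallest p were Rpusd3, a pseudouridine synthase gene (0.24 ± 0.21, SE; 2.85 CPM in eGFP-GluA2 and 2.41 CPM in eGFP cells), and Mtmr14, a phosphoinositide phosphatase gene (-0.07 ± 0.08; 15.7 CPM in eGFP-GluA2 and 16.5 CPM in eGFP cells).

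**Figure D5:**
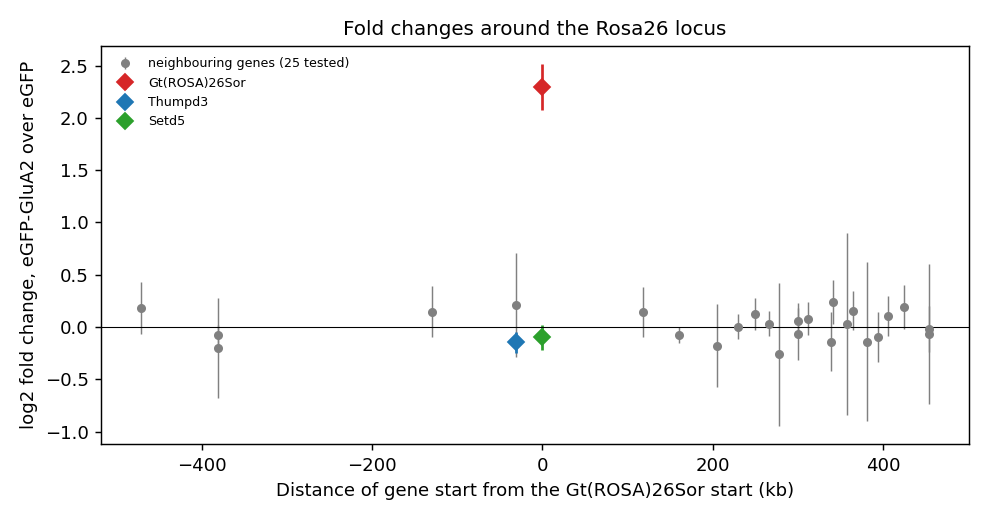
Log2 fold change (eGFP-GluA2 over eGFP, edgeR) with its SE for the 3 members (diamonds) and the 25 tested neighbours (grey), by distance in kb of each gene's start from the Gt(ROSA)26Sor start. Gt(ROSA)26Sor stands at 2.30; the neighbours lie between -0.26 and 0.24.

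Genes that work with the 2 flanking proteins were given by lists. Of 12 genes tied to SETD5 (the HDAC3-NCoR and PAF1 complexes, reported with SETD5, and Kmt2e), 0 passed in either direction, and the median log2 fold change was 0.02 (lowest -0.12, highest 0.17). Those of smallest p were Gps2, a subunit of the NCoR complex (0.17 ± 0.09, SE; 15.2 ± 1.26 CPM in eGFP-GluA2 and 13.6 ± 1.72 CPM in eGFP cells, SD), and Paf1 (0.15 ± 0.13; 37.1 ± 6.52 CPM in eGFP-GluA2 and 33.4 ± 6.01 CPM in eGFP cells). Of 9 genes of TRMT112, its partners and other THUMP-domain proteins, 0 passed, and the median was -0.07 (lowest -0.19, highest 0.12). Those of smallest p were Trmt11, a tRNA methyltransferase that also pairs with TRMT112 (-0.19 ± 0.11; 15.0 ± 2.36 CPM in eGFP-GluA2 and 17.1 ± 2.45 CPM in eGFP cells), and Bud23, an rRNA methyltransferase (0.12 ± 0.11; 22.9 ± 2.47 CPM in eGFP-GluA2 and 21.0 ± 3.36 CPM in eGFP cells). In both lists 0 genes had an unadjusted p under 0.05, beside 1.12% of all genes tested (0.00381% past the threshold), so these counts too are near the background.

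Start regions of 300 bases from RefSeq (GRCm38.p6) were at hand for Thumpd3 (chr6:113046052-113046351) and for a start of Setd5 inside its gene body (chr6:113104685-113104984). They were searched on both strands for the GC box (GGGCGG), the CCAAT box, the TATA box (TATAAA) and the ETS motif (CCGGAAG). They were also searched for the YY1 motif (ATGGCGG), the NRF1 core (TGCGCA), a part of the cAMP response element (TGACGT) and the E-box (CACGTG). No motif holds another. The Thumpd3 region held CCGGAAG, found in 8.86% of 32851 such regions, and TGCGCA, found in 7.76%, and the Setd5 region held none of the 8. The most common of them over all regions were CCAAT (37.4%) and GGGCGG (35.7%). A match is a description of letters and not of a bound factor.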

How the data were processed

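The members and lists were chosen with earlier results of these data known. The design text of the series names bcbio-nextgen 1.2.3 with STAR alignment to GRCm38, Sailfish for gene quantities under the Ensembl annotation, and DESeq2 for the group comparison, all run by the authors. The deposited counts are whole numbers of reads for 54532 genes, and the sources do not say which of these tools wrote them. The deposited TPM were scaled for transcript length by the authors. Another deposited table gives signal values (read counts over a size factor for each library) with the authors' log2 fold changes, a test statistic (a score) and p-values. Of these signal values 100% were whole multiples of 1 read within 0.001, and the recovered reads (10477517 to 17382059 per library) were tested as an alternative.

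Genes were named from GENCODE M21 (54495 of 54532). edgeR 4.0.16 was used on deposited counts (TMM, filterByExpr, quasi-likelihood F test, robust), keeping 26257 genes with 99.2% of counts. Values per library are CPM, or log2 CPM with a prior count of 2. Background is the CPM of 1448 autosomal protein-coding receptor genes, in tiers under 500, 500 to 1500 and over 1500 CPM. The named genes are the members, Gria2, Pvalb, the 5 most alike by r, and in lists the called genes or the 2 of smallest p. DESeq2 1.42.0, limma 3.58.1 on log2(TPM + 0.5) and other settings were alternatives. No separate cultures or litters are given per library, so p-values measure the spread between these libraries. The fits were tested on simulated data with 200 changed genes. R 4.3.3, Python 3.11.15 and scipy 1.17.1 were used.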

Additional observations from a re-analysis of the deposited data

Results flagged for a closer look

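Thumpd3 in eGFP replicate 4 stood at 16.7 TPM, far above the other 8 eGFP libraries for their range (gap to the next over the whole range 0.524, critical value 0.493). In CPM the same library was at 20.5, within the eGFP range of 17.6 to 24.8. With 24 such comparisons over the members, units, groups and both ends, 1 flag can arise by chance.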

How the results depend on the processing

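Gt(ROSA)26Sor passed an adjusted p of 0.05 in each of 30 alternatives, with a log2 fold change of 2.07 to 2.70 (2.19 to 2.38 without any 1 library). All of these refit the contrast that chose the gene, on the same libraries or some of them, so nothing is read from the passes. Setd5 lay between -0.21 and 0.01, above 0 in limma on TPM. Thumpd3 lay at -0.40 in high-background libraries alone and turned above 0 in limma on TPM, at 0.092, 0.10 and 0.088 with pseudocounts of 0.5, 0.1 and 1, and on read counts at 0.0087 (recovered reads) and 0.0034 (middle-background libraries alone); without any 1 library it ran from -0.19 to -0.10. The count of genes past the threshold, 1 in edgeR (293 at an unadjusted p under 0.05), was 14 with DESeq2, 2 with upper-quartile scaling, 9 and 11 with the background level or tier in the fit, 2, 3 and 2 in limma on TPM (pseudocounts 0.5, 0.1 and 1), 3 on recovered reads, and 154, 5 and 5 in the low, middle and high tier alone. It stayed at 1 without any 1 library. The replicate block gave 8 genes, but same-numbered libraries correlated at -0.21 to 0.86 and 2 of 7 eGFP-GluA2 libraries correlated best with their own number, so the numbers were not taken as pairs. Without the tiers the relations of Gt(ROSA)26Sor with Gria2 (r = 0.62) and Thumpd3 (0.71) and of Thumpd3 with Setd5 (0.66) passed; the cause was not tested beyond the tiers themselves. The r of Thumpd3 with Setd5 was -0.025 without the 2 farthest libraries and -0.036 (the lowest) to 0.44 (the highest) without any 1: eGFP replicate 8 gave the lowest. Without eGFP replicate 4, which gave the highest, Spearman's rho was 0.64 with an adjusted exact permutation p of 0.0394, while r did not pass (0.109). Libraries left alone in a group and tier were dropped there. Under the alternatives run, the median log2 fold change of the neighbours lay between -0.007 and 0.12, with windows of 250 and 1000 kb among them. That of the SETD5 list lay between -0.04 and 0.09, and that of the TRMT112 list between -0.11 and 0.003. Depth limits Gt(ROSA)26Sor in eGFP libraries most, at 17 to 56 reads.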
